A study of Mus musculus with 25 samples.

Results

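A set of 10 genes of the matrix metalloproteinase system was followed in mouse distal colon: 8 metalloproteinases (Mmp3, Mmp7, Mmp8, Mmp9, Mmp10, Mmp12, Mmp13 and Mmp14) and 2 of their tissue inhibitors (Timp1 and Timp3). They were taken by gene symbol, 10 of the 49452 gene identifiers in the expression table, and all 10 were among the 19266 genes that reached 0.2 FPKM in 5 or more libraries and were tested. FPKM counts sequenced fragments relative to transcript length and to library size, so levels can be set side by side between genes. The 25 libraries came from 25 mice aged 6 weeks on the C57BL/6 background, 5 for each of 5 genotypes.

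In Nemofl/fl mice the gene of NEMO (Ikbkg), the scaffold of the IκB kinase that activates NF-κB, is floxed but present. NEMOIEC-KO mice have lost it from the intestinal epithelium and are known for spontaneous colitis. The other 3 genotypes carry the same epithelial deletion together with Il12b-/- (the p40 chain common to both cytokines IL-12 and IL-23), Il12a-/- (p35 of IL-12) or Il23a-/- (p19 of IL-23). The labels name neither the Cre driver nor the mutated parts of the cytokine genes. The study asked how loss of each of these subunits changes the inflamed NEMOIEC-KO colon.

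Matrix metalloproteinases are zinc-dependent enzymes, most of them secreted as inactive precursors, that cut collagens, elastin, laminins and other extracellular proteins and also process cytokines and defensins. Tissue inhibitors of metalloproteinases bind the active enzymes and block them. In the gut, stromelysins and collagenases are made mainly by stromal cells and macrophages of inflamed or ulcerated tissue, Mmp8 and Mmp9 are stored in neutrophils, and matrilysin (Mmp7) is made by epithelial cells.

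The libraries had FPKM sums between 653776 and 744280. No 2 libraries held identical values, and correlations between libraries of a genotype lay between 0.96 and 0.98 (Pearson, log2 scale, 50 pairs). For Ikbkg the mean was 9.08 ± 1.14 FPKM in control and 4.08 ± 1.1 in NEMOIEC-KO libraries (SD, n = 5), with double mutant means between 3.34 and 3.98. Il12b RNA was higher, not lower, in the libraries that carry its label. It averaged 0.994 ± 0.223 FPKM in the libraries labelled Il12b-/- against 0.171 ± 0.0799 in NEMOIEC-KO, and was at most 0.236 in the other 4 genotypes. Il12a RNA likewise averaged 1.20 ± 0.586 in the libraries labelled Il12a-/- against 0.421 ± 0.313 in NEMOIEC-KO. Il23a RNA was at most 0.805 FPKM in any library and averaged 0.214 ± 0.0427 FPKM in the libraries labelled Il23a-/- against 0.311 ± 0.308 in NEMOIEC-KO (medians 0.229 and 0.127, -0.11 on the log2 scale, limma adjusted p = 0.9), so it does not check that label. Whole-gene FPKM cannot show a partial deletion, so double mutant libraries are named by label here, as Il12b-labelled and so on. By the library codes in the labels, the 5 control libraries and replicates 3 to 5 of NEMOIEC-KO belong together (K002000081), and the rest have K002000079, apart from Il23a-labelled replicate 5 (K002000080). Mitochondrial genes made up 9.94% ± 2.30 of the FPKM sum in Nemofl/fl and on average 4.76% to 6.37% in the other 4 genotypes. The summed epithelial markers measured 10865 to 14703 FPKM over the 25 libraries, and Xist exceeded Ddx3y in 4 Il23a-labelled, 2 Il12a-labelled, 2 Il12b-labelled, 1 NEMOIEC-KO and 0 Nemofl/fl libraries.

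In the genome 6 of the members lie in 1 cluster on chromosome 9, from 7272514 to 7699585 (GRCm38), in the order Mmp13, Mmp12, Mmp3, Mmp10, Mmp8 and Mmp7, all on the plus strand. Mmp9 lies on chromosome 2 (164940780 to 164955850), Mmp14 on chromosome 14 (54431612 to 54445364), Timp1 on chromosome X (20870166 to 20874735) and Timp3 on chromosome 10 (86300372 to 86349506). Exons of Mmp12, Mmp7 and Timp3 overlap other genes (Mmp1b, AV064505 and Syn3), and whether counting used the strand is not given in the sources used here. Mmp1b reached at most 0.0303 FPKM and Syn3 0.837 in any library, and AV064505 was listed at 0 in all 25.

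RefSeq promoters (GRCm38.p6, 250 bases before to 50 bases after the start of a transcript) were matched for 9 of the 10 members, all but Mmp9. They are shown for Mmp3, Mmp7, Mmp10 and Mmp13 because these share a motif and had the largest log2 fold changes of NEMOIEC-KO against Nemofl/fl. Of these, Mmp3 did not pass the threshold given below. Letters in capitals mark matches to TGANTCA, the binding motif of AP-1, the Fos and Jun factor downstream of inflammatory signals, searched on both strands.
Mmp3, chr9:7445572-7445871 (+ strand): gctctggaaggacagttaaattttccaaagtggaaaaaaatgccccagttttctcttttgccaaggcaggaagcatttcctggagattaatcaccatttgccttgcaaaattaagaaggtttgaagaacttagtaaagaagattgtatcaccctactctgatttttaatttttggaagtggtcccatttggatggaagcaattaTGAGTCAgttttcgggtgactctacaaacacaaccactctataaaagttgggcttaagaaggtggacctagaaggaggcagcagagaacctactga
Mmp7, chr9:7691840-7692139 (+ strand): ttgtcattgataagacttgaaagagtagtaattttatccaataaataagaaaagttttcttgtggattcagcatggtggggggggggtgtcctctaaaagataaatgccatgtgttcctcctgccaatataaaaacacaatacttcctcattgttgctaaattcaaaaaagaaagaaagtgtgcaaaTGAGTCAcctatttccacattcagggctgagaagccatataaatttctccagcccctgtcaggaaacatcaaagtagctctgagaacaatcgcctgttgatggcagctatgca
Mmp10, chr9:7502092-7502391 (+ strand): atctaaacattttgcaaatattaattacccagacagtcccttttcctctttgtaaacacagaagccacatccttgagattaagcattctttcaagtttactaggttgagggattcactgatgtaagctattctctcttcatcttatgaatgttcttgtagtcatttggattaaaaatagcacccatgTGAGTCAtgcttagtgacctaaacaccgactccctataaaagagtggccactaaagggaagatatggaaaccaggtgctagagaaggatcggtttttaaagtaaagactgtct
Mmp13, chr9:7272264-7272563 (+ strand): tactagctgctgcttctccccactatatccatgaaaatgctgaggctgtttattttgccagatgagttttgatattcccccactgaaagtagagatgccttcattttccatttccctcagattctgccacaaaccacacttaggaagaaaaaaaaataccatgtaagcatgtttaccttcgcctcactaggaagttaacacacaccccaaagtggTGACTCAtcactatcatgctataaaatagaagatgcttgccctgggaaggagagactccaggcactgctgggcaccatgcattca

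The AP-1 motif began 46 bases before the start of Mmp3, 63 before Mmp7, 63 before Mmp10 and 35 before Mmp13. It was also found 44 bases before the second of the 2 starts listed for Mmp12. RefSeq also lists a second start for Mmp7, and its window (7692091 to 7692390) did not hold these letters, nor did the window of the first start of Mmp12 or those of Mmp8, Mmp14, Timp1 and Timp3. Of all 32851 promoters of the same length, 7.81% held the motif. The windows shown were picked partly for holding it and lie in the same gene cluster, so this share is no test of them. The STAT site TTCNNNGAA, also searched on both strands, was in none of the 11 windows of the members and in 8.30% of all promoters. These matches describe letters in a window, and binding was not measured.

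**Figure D1:**
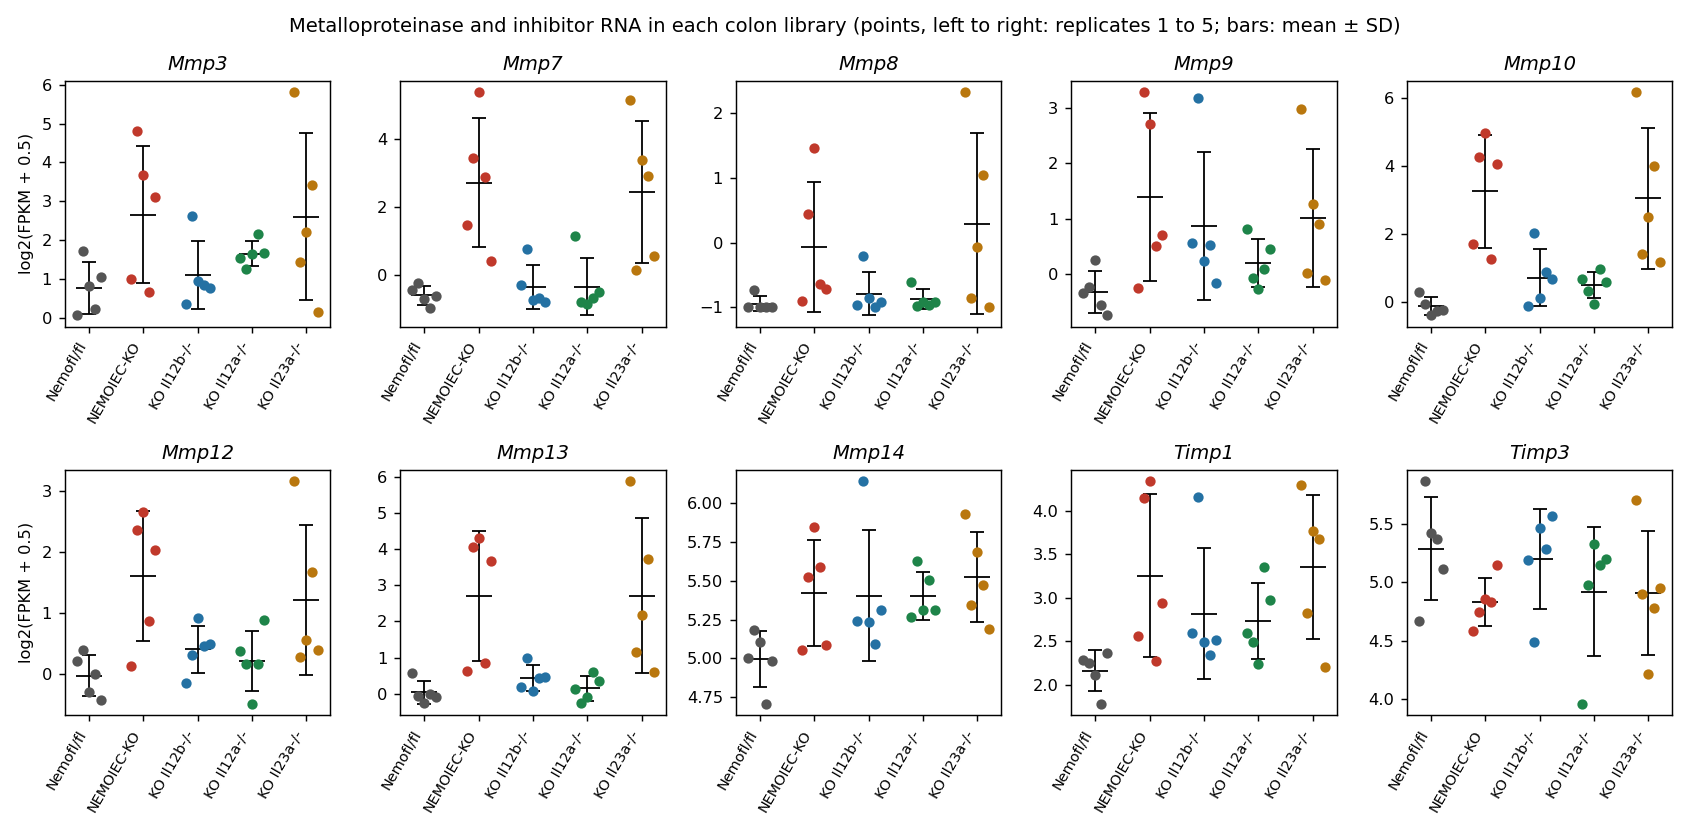
FPKM of the 10 members in each library (points, left to right replicates 1 to 5 of each genotype) on a log axis after adding 0.5, with bars at mean ± SD (n = 5). The chromosome 9 genes Mmp7, Mmp10 and Mmp13 were below 1.1 FPKM in every Nemofl/fl library and reached 41.5, 72.3 and 58.5 FPKM in single NEMOIEC-KO or Il23a-labelled libraries, while Mmp14 and Timp3 stayed between 15.0 and 70.2 FPKM everywhere.

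Levels in the control colon set 3 members apart. In Nemofl/fl libraries Timp3 averaged 40.1 ± 12.2 FPKM, Mmp14 31.6 ± 3.85 and Timp1 4.01 ± 0.679 (SD, n = 5), and the 7 secreted proteases were lower than these, from Mmp3 at 1.37 ± 0.909 down to Mmp7 at 0.163 ± 0.129 and Mmp8, listed at 0 in 4 of 5 libraries. Timp3 and Mmp14 overlapped in range, as did Mmp13, Mmp12, Mmp10 and Mmp9 among themselves. Timp3 made up 38.7% to 57.2% and Mmp14 34.6% to 49.1% of the summed FPKM of the 10 members in this genotype. Across all 25 libraries Mmp14, Timp1 and Timp3 always exceeded 1 FPKM, whereas Mmp8 reached 1 FPKM in 3 libraries and 0.2 FPKM in 6.

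The first comparison asks what the epithelial loss of NEMO changes. In NEMOIEC-KO colon 6 of the 10 members rose against Nemofl/fl and 0 fell: stromelysin Mmp10, matrilysin Mmp7, collagenase Mmp13, macrophage elastase Mmp12, gelatinase Mmp9 and the inhibitor Timp1. The threshold was an adjusted p below 0.05 in limma, with Benjamini-Hochberg adjustment over all 19266 genes. Of all genes tested, 32.2% passed it in either direction and 11.9% were higher. The median log2 fold change was 1.68 over the 10 members and -0.08 over all genes. The members were chosen with earlier results of these data known, so such contrasts with other genes are partly set by that choice. All fold changes are on the log2(FPKM + 0.5) scale, which understates the change of low genes. Fewer cells of a type and less RNA per cell cannot be told apart in whole tissue.

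Stromelysins Mmp3 and Mmp10 cut proteoglycans, laminin and fibronectin and activate other proenzymes. Mmp10 stood at 0.730, 0.453, 0.268, 0.319 and 0.345 FPKM in Nemofl/fl replicates 1 to 5 and at 2.74, 18.8, 31.0, 1.92 and 16.2 in the NEMOIEC-KO replicates. Every NEMOIEC-KO library lay above every Nemofl/fl library, as was the case for 8.73% of all genes tested, with replicates 2, 3 and 5 high and replicates 1 and 4 low. The log2 fold change was 3.39 (SE 0.75, limma adjusted p = 0.0021). Mmp3 measured 0.541, 2.80, 1.26, 0.658 and 1.58 FPKM in Nemofl/fl and 1.51, 27.5, 12.3, 1.09 and 8.06 in NEMOIEC-KO. The same replicates 2, 3 and 5 were high, but replicates 1 and 4 lay within the Nemofl/fl range. The log2 fold change of Mmp3 was 1.88 (SE 0.80) and did not pass the threshold (limma adjusted p = 0.076). It passed without NEMOIEC-KO replicate 1 (0.039) or without replicate 4 (0.031).

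Matrilysin, encoded by Mmp7, lacks the hemopexin domain of the other 7 metalloproteinases and activates defensins in the small intestine. Mmp7 stood at 0.229, 0.341, 0.104, 0 and 0.144 FPKM in Nemofl/fl replicates 1 to 5 and at 2.25, 10.3, 41.5, 6.87 and 0.823 in NEMOIEC-KO. The groups did not overlap, and NEMOIEC-KO replicate 3 was the highest of all 25 libraries. The log2 fold change was 3.33 (SE 0.81, limma adjusted p = 0.004). Of the Paneth cell markers, the defensin gene Defa22 was listed at 0 in all 25 libraries, and Defa17, Defa21, Defa24 and Defa30 were at 0 in 23, 24, 20 and 23 of them. Of the 4 tested genes of that marker list 3 rose, with Pla2g2a, a secreted phospholipase, 4.6 higher on the log2 scale (limma adjusted p = 0.00013).

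Collagenases open the triple helix of fibrillar collagen. Mmp13, the main interstitial collagenase of rodents, measured 1.00, 0.461, 0.331, 0.501 and 0.444 FPKM in Nemofl/fl and 1.05, 16.0, 19.3, 1.30 and 12.1 in NEMOIEC-KO. The groups did not overlap, although NEMOIEC-KO replicate 1 exceeded the highest Nemofl/fl library only narrowly. The log2 fold change was 2.66 (SE 0.76, limma adjusted p = 0.011). Mmp8, the neutrophil collagenase, was listed at 0, 0.101, 0, 0 and 0 FPKM in Nemofl/fl and at 0.0314, 0.852, 2.26, 0.143 and 0.109 in NEMOIEC-KO. Replicates 2 and 3 were again the highest, and Nemofl/fl replicate 2 lay above NEMOIEC-KO replicate 1. Its log2 fold change of 0.87 (SE 0.47) did not pass the threshold (limma adjusted p = 0.16).

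Mmp12, the elastase of macrophages, ranged from 0.247 to 0.809 FPKM in Nemofl/fl and measured 0.597, 4.65, 5.80, 1.33 and 3.59 in NEMOIEC-KO. Only replicate 1 fell inside the Nemofl/fl range, and the log2 fold change was 1.64 (SE 0.47, limma adjusted p = 0.012). Mmp9, the gelatinase of neutrophils and macrophages, ranged from 0.0925 to 0.683 FPKM in Nemofl/fl and measured 0.337, 9.29, 6.09, 0.919 and 1.13 in NEMOIEC-KO. Its log2 fold change was 1.73 (SE 0.65, limma adjusted p = 0.046), with replicates 2 and 3 far above the rest. The Mmp9 call was lost without any 1 of the 5 Nemofl/fl libraries or without NEMOIEC-KO replicate 2 or 3 (limma adjusted p between 0.052 and 0.15).

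Mmp14 is the membrane-bound protease that activates the proenzymes of Mmp2 and Mmp13. It measured 31.5, 35.7, 34, 25.6 and 31.1 FPKM in Nemofl/fl and 32.7, 45.6, 56.9, 47.6 and 33.4 in NEMOIEC-KO. The groups overlapped at NEMOIEC-KO replicates 1 and 5, and the log2 fold change of 0.42 (SE 0.18) did not pass the threshold (limma adjusted p = 0.071). It passed without NEMOIEC-KO replicate 1 or 5 (adjusted p of 0.036 and 0.043) and after median-of-ratios scaling (0.027).

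The 2 inhibitors differed. Timp1, the secreted inhibitor induced by inflammatory cytokines, measured 4.39, 4.26, 3.83, 2.93 and 4.67 FPKM in Nemofl/fl and 5.39, 17.2, 19.8, 4.34 and 7.20 in NEMOIEC-KO. Replicates 2 and 3 were high and replicate 4 lay within the Nemofl/fl range, with a log2 fold change of 1.09 (SE 0.41, limma adjusted p = 0.046). The Timp1 call was lost without any 1 Nemofl/fl library or without NEMOIEC-KO replicate 2, 3 or 5 (limma adjusted p between 0.051 and 0.15). Timp3, which binds to the matrix and also inhibits ADAM proteases, ranged from 24.9 to 58.1 FPKM in Nemofl/fl and from 23.5 to 34.9 in NEMOIEC-KO. Its log2 fold change was -0.46 (SE 0.27, 95% interval -1.01 to 0.10, limma adjusted p = 0.2).

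The calls of Mmp7, Mmp10, Mmp12 and Mmp13 were kept when each of the 10 libraries was left out in turn, with adjusted p of at most 0.017, 0.0094, 0.046 and 0.042. Within the library code shared by 5 Nemofl/fl and 3 NEMOIEC-KO libraries the log2 fold changes were 3.51 for Mmp7, 3.57 for Mmp10, 2.90 for Mmp13, 1.88 for Mmp12, 1.65 for Mmp9 and 1.03 for Timp1, and all but Timp1 passed (limma adjusted p = 0.081). With library code as a term in the fit over all libraries the values were the same, Mmp7, Mmp10, Mmp12 and Mmp13 passed, and the calls of Mmp9 and Timp1 were lost (limma adjusted p of 0.11 and 0.096), as they were with sex-linked RNA as a term (0.063 and 0.062) and with no filter on low values (0.079 and 0.077). A pseudocount of 1 also ended the Mmp9 call (0.06). Smooth muscle markers moved with the genotype: 10 of 14 fell and 0 rose, and their summed FPKM was 3927 to 13363 in Nemofl/fl and 2215 to 6450 in NEMOIEC-KO. With the mean log2 level of these markers (the smooth muscle score) as a term 0 members were called, and the log2 fold changes were 2.22 for Mmp10 (limma adjusted p = 0.055), 1.71 for Mmp7 (0.1), 1.60 for Mmp13 (0.19) and 1.1 for Mmp12 (0.17).

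**Figure D2:**
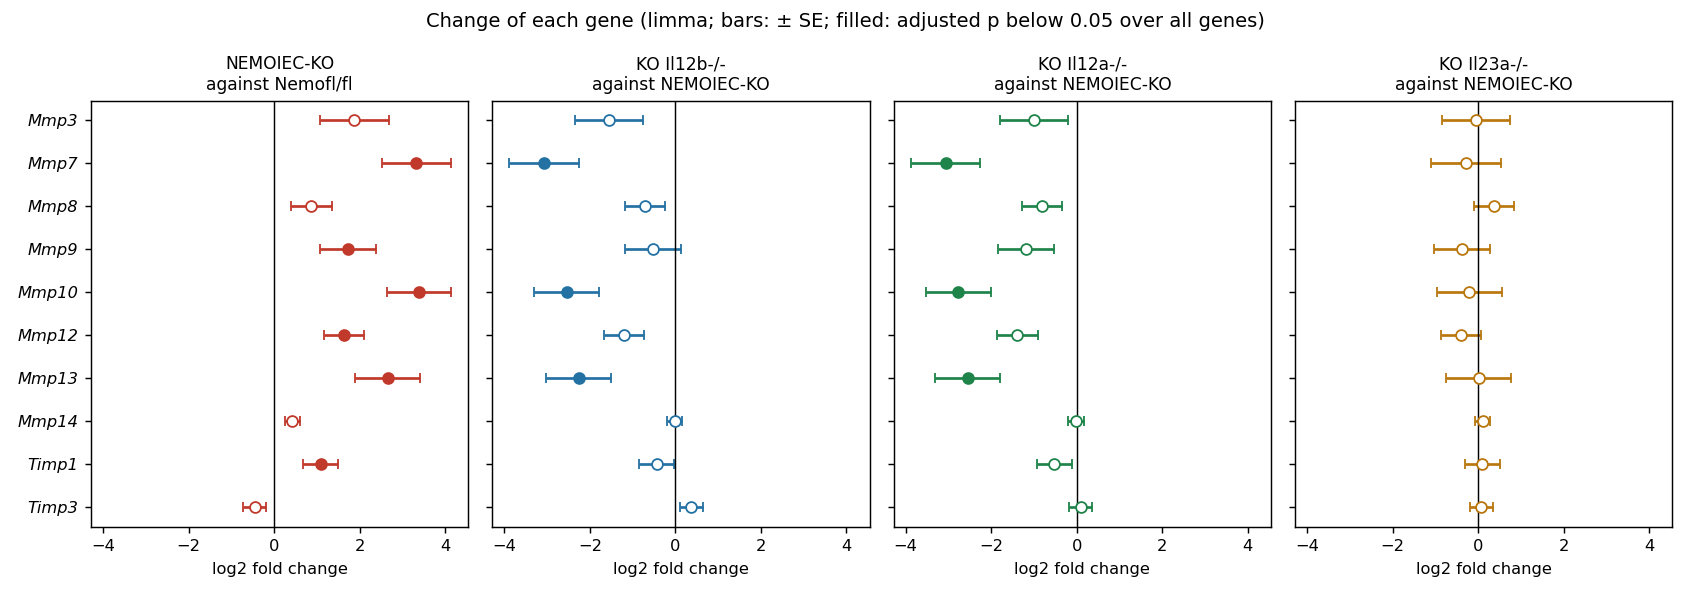
Log2 fold change of each member with its standard error in the comparisons of the 5 genotypes, from 1 limma fit over 25 libraries. Filled points passed an adjusted p of 0.05: 6 members were higher in NEMOIEC-KO than in Nemofl/fl, Mmp7, Mmp10 and Mmp13 were lower in Il12b-labelled and Il12a-labelled libraries than in NEMOIEC-KO, and 0 members differed between Il23a-labelled and NEMOIEC-KO libraries.

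Other genes of the protease system were less uniform in this comparison, although members and lists were chosen with earlier results of these data known. Of 18 further metalloproteinases and inhibitors, 13 were tested, 2 rose and 2 fell. The risers were Mmp28 (epilysin, an epithelial protease), which averaged 5.68 ± 2.64 FPKM after the deletion and 2.04 ± 0.194 without it (1.20 on the log2 scale, limma adjusted p = 0.0014), and Mmp25 (0.54, 0.011). Both genes that fell encode inhibitors. Timp2 went from 53.6 ± 12.6 FPKM to 29.2 ± 2.92 (-0.84 on the log2 scale, limma adjusted p = 0.0048), and Reck, a membrane-anchored inhibitor, from 2.92 ± 0.817 to 1.29 ± 0.352 (-0.92, 0.0064). The median of the 13 was -0.20.

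Of 17 tested ADAM and ADAMTS proteases 3 rose and 1 fell, among them Adam8 (1.21) and the aggrecanases Adamts4 (1.18) and Adamts5 (-0.54). The plasminogen and serine protease group had 6 of 10 tested genes higher and 0 lower, with a median log2 fold change of 0.72. Its largest changes were in the protease inhibitors Serpina3g (3.04) and Serpina3n (2.50). Of 18 matrix genes 1 rose, Spp1 (osteopontin, 1.98), and 4 fell, including Postn (periostin, -0.92) and Eln (elastin, -0.80). Of 17 tested cytokines and transcription factors known to induce metalloproteinases 9 rose and 0 fell, among them Il1b (4.13) and Tnf (1.90).

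Markers of infiltrating cells moved alongside. Of 11 tested neutrophil markers 10 rose, and their sum without Ly6g (which is high in control colon and was left out after its values were seen) was 1.87 to 15.8 FPKM in Nemofl/fl and 15.9 to 619 in NEMOIEC-KO. Of 14 macrophage markers 9 rose and 2 fell, with sums of 220 to 271 FPKM in Nemofl/fl and 273 to 689 in NEMOIEC-KO. Markers of resident cells moved too. Of 11 fibroblast markers 5 fell and 0 rose, with sums of 266 to 549 FPKM in Nemofl/fl and 210 to 252 in NEMOIEC-KO. Of 12 epithelial markers 7 rose and 1 fell, with Krt20, a keratin of mature colonocytes, at 1.14 and Car1, a carbonic anhydrase, at -1.66 on the log2 scale, and sums of 10865 to 11990 and 11360 to 14113 FPKM. Of 10 endothelial markers 3 fell and 0 rose, with sums of 67.0 to 118 and 71.3 to 114 FPKM. The part of these markers in the changes of the proteases was not tested.

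The sum of the 7 secreted proteases gives the spread in 1 value per mouse. In Nemofl/fl it was 3.44, 5.31, 2.96, 2.16 and 2.85 FPKM and in NEMOIEC-KO 8.51, 87.4, 118, 13.6 and 42.0. In NEMOIEC-KO replicates 2, 3 and 5 all 7 genes were above every Nemofl/fl library, in replicate 4 this held for 6 and in replicate 1 for 3. The ratio of this sum to Timp1 plus Timp3 was 0.0491 to 0.118 in Nemofl/fl and 0.294, 2.00, 2.45, 0.420 and 0.997 in NEMOIEC-KO. These are ratios of RNA that leave out other inhibitors, such as Timp2 and Reck, which fell in this comparison. No enzyme activity was measured.

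**Figure D3:**
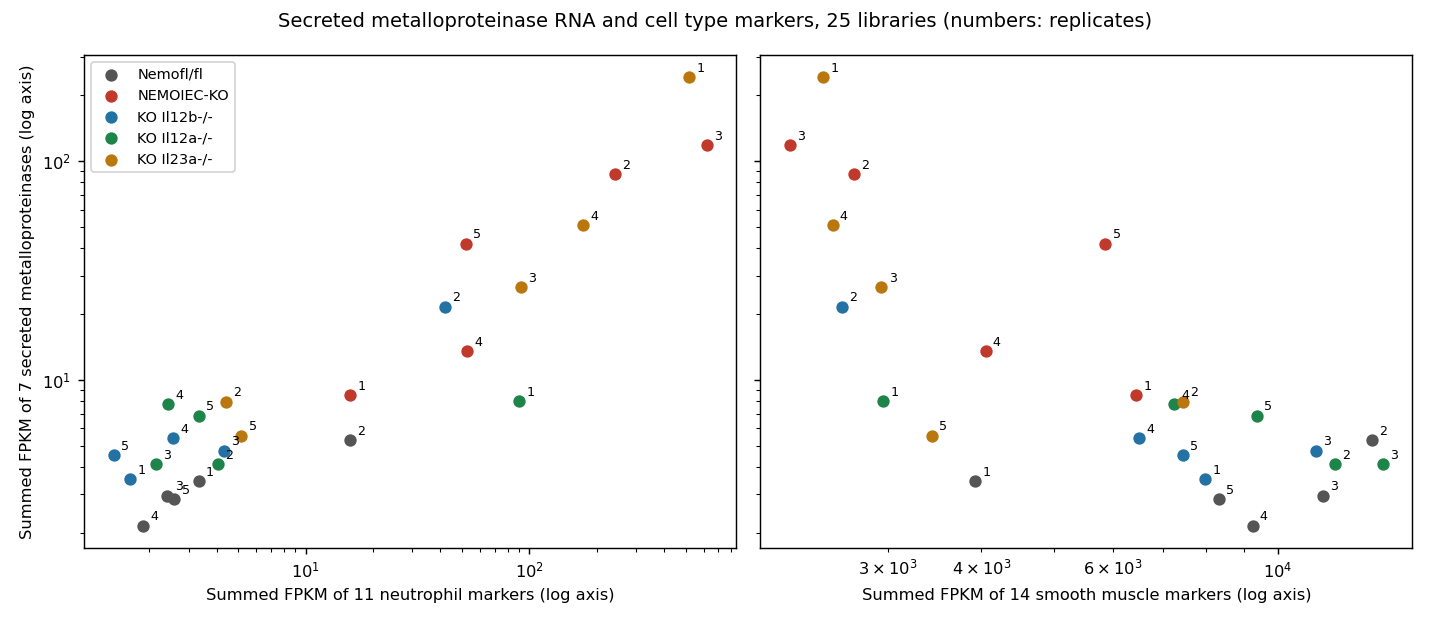
Summed FPKM of the 7 secreted metalloproteinases in each library against the summed neutrophil markers (without Ly6g) and the summed smooth muscle markers, on log axes, coloured by genotype. The libraries with the highest protease sums, 242 FPKM in Il23a-labelled replicate 1 and 118 in NEMOIEC-KO replicate 3, also had the highest neutrophil sums (517 and 619 FPKM) and the lowest smooth muscle sums of their genotypes.

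The next 3 comparisons ask how each cytokine subunit label changes the NEMOIEC-KO colon. They share the 5 NEMOIEC-KO libraries and are therefore not independent of each other. In Il12b-labelled colon 3 members fell, Mmp7, Mmp10 and Mmp13, and 0 rose. Of all genes 19.9% were called and 5.94% were lower. The median log2 fold change of the members was -0.96, against 0.11 over all genes.

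Mmp10 measured 0.417, 3.54, 0.584, 1.34 and 1.08 FPKM in Il12b-labelled replicates 1 to 5. Replicate 2 was high and overlapped NEMOIEC-KO, and the other 4 lay below every NEMOIEC-KO library (log2 fold change -2.55, SE 0.75, limma adjusted p = 0.02). Mmp7 stood at 0.311, 1.19, 0.099, 0.123 and 0.0653 FPKM, again with replicate 2 highest and above NEMOIEC-KO replicate 5 (-3.07, SE 0.81, 0.011). Mmp13 measured 0.645, 1.48, 0.554, 0.856 and 0.877 FPKM, with replicate 2 inside the NEMOIEC-KO range (-2.26, SE 0.76, 0.038). None of the 3 genes was free of overlap, against 4.1% of all genes that were lower without overlap.

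The other members did not pass the threshold in Il12b-labelled libraries. Mmp3 measured 0.765, 5.68, 1.42, 1.28 and 1.19 FPKM (-1.55 on the log2 scale, limma adjusted p = 0.17), and Mmp12 ranged from 0.404 to 1.38 (-1.21, 0.073) and passed without NEMOIEC-KO replicate 1 (-1.58, 0.021). Replicate 2 also stood out for Mmp9 at 8.65 FPKM, Mmp14 at 70.2 and Timp1 at 17.3, where the other 4 libraries reached at most 0.971, 39.2 and 5.54. Mmp14 differed by -0.02 on the log2 scale (95% interval -0.38 to 0.35) and Timp1 by -0.44 (-1.29 to 0.42). For Mmp9 the difference was -0.53 (-1.88 to 0.82), for Mmp8 -0.72 (-1.69 to 0.26) and for Timp3 0.37 (-0.19 to 0.92). Summed neutrophil markers were 42.1 FPKM in replicate 2 and 1.38 to 4.30 in the rest, and its smooth muscle sum of 2600 was the lowest of the group. Their part in these values was not tested.

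The Mmp7 call was kept in all 10 fits that left out 1 library. The Mmp10 call was lost without NEMOIEC-KO replicate 2 or 3 or Il12b-labelled replicate 1 (limma adjusted p between 0.055 and 0.068), and that of Mmp13 without NEMOIEC-KO replicate 2, 3 or 5 or Il12b-labelled replicate 1, 3, 4 or 5 (0.065 to 0.11). Within the library code that holds 5 Il12b-labelled and 2 NEMOIEC-KO libraries the log2 fold changes were -2.81 for Mmp7, -2.28 for Mmp10 and -1.90 for Mmp13, and 0 passed (limma adjusted p between 0.11 and 0.25). With the smooth muscle score as a term only Mmp7 was called, and Mmp10 (-1.77) and Mmp13 (-1.56) had adjusted p of 0.094 and 0.17.

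Among the related genes, the inhibitors Reck (log2 fold change 0.91, limma adjusted p = 0.01) and Timp2 (0.80, 0.01) rose, and Mmp28 (-0.84, 0.023) and Mmp25 (-0.51, 0.024) fell. Timp2 averaged 51.6 ± 8.44 FPKM in the Il12b-labelled libraries, and these lay above all NEMOIEC-KO libraries. Of 17 inducing cytokines and factors 8 fell and 0 rose, among them Il1b (-3.45) and Tnf (-2.19). Of the serine protease group 3 of 10 fell, Plaur (the urokinase receptor, -1.59) and Serpina3g (-2.04) among them. Of 18 matrix genes 3 rose, including Eln (0.82) and Postn (0.69). Of 11 neutrophil markers 6 fell, and 0 of 14 smooth muscle markers passed the threshold. The neutrophil list had a median log2 fold change of -1.61, with all 11 genes at an unadjusted limma p below 0.05. For the smooth muscle list the median was 0.73, with 2 genes at such a p. Of 14 macrophage markers 1 rose, Cd163 (0.99), and 1 fell, Fcgr4 (-1.76). Their sums were 313 to 553 FPKM, against 273 to 689 in NEMOIEC-KO and 220 to 271 in Nemofl/fl. Of 11 fibroblast markers 4 rose and 0 fell, with sums of 296 to 401 FPKM against 210 to 252 in NEMOIEC-KO. Of 12 epithelial markers 6 fell, Krt20 (-0.96) among them, and 2 rose, Car1 (1.79) and Cdx2 (1.25), while 3 of 10 endothelial markers rose. The part of these markers in the fall of Mmp7, Mmp10 and Mmp13 was not tested.

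In Il12a-labelled colon the same 3 members, Mmp7, Mmp10 and Mmp13, fell against NEMOIEC-KO and 0 rose. Of all genes 9.61% were called and 4% were lower, and the members' median was -1.1 against 0.07 over all genes. Mmp10 measured 1.09, 0.751, 0.447, 1.45 and 0.983 FPKM and Mmp13 0.599, 0.339, 0.440, 1.03 and 0.771. All Il12a-labelled libraries lay below all NEMOIEC-KO libraries for both genes, as was the case for 1.97% of all genes. For Mmp13 the margin was narrow, with the lowest NEMOIEC-KO library at 1.05 FPKM. The log2 fold changes were -2.77 for Mmp10 (SE 0.75, limma adjusted p = 0.025) and -2.54 for Mmp13 (SE 0.76, 0.038).

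Mmp7 stood at 1.73 FPKM in Il12a-labelled replicate 1, within the NEMOIEC-KO range, and at 0.0661, 0.0456, 0.114 and 0.197 in replicates 2 to 5. Its log2 fold change was -3.07 (SE 0.81, limma adjusted p = 0.022). Mmp3 was even across this genotype, at 2.38, 1.89, 2.62, 3.98 and 2.69 FPKM, and inside the wide NEMOIEC-KO range (-1.0, 0.43). Mmp12 ranged from 0.212 to 1.34 FPKM (-1.39, 0.062) and passed without NEMOIEC-KO replicate 1 or Il12a-labelled replicate 1 (0.024 and 0.044). Mmp8 (-0.81, 0.26), Mmp9 (-1.19, 0.23), Timp1 (-0.52, 0.41), Mmp14 (-0.02, 0.96) and Timp3 (0.09, 0.86) did not pass.

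The 3 calls of this comparison were lost in many of the fits that left out 1 library: Mmp7 without NEMOIEC-KO replicate 2 or 3 or Il12a-labelled replicates 2 to 5 (limma adjusted p between 0.051 and 0.075), Mmp10 without NEMOIEC-KO replicate 2, 3 or 5 or Il12a-labelled replicate 2, 3 or 5 (0.053 to 0.082), and Mmp13 without NEMOIEC-KO replicate 2, 3 or 5 or Il12a-labelled replicates 2 to 5 (0.064 to 0.11). Within the library code shared by 5 Il12a-labelled and 2 NEMOIEC-KO libraries they were -2.80, -2.50 and -2.18 for Mmp7, Mmp10 and Mmp13, with adjusted p between 0.19 and 0.27, and with the smooth muscle score as a term 0 members passed.

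Related genes again included Mmp28, which fell (log2 fold change -0.98, limma adjusted p = 0.02), as the only 1 of 13 tested further metalloproteinases and inhibitors. The sheddase Adam10 (-0.55, 0.023) and Adamts4 (-0.86, 0.038) fell, as did Plaur (-1.39, 0.04). Of 17 inducing cytokines and factors 4 fell, with Il1b at -3.18 and Tnf at -1.84. So did 3 of 11 neutrophil markers, 2 of 14 macrophage markers and 4 of 12 epithelial markers, while 1 of 11 fibroblast markers rose and 0 of 10 endothelial markers passed. The neutrophil list had a median log2 fold change of -1.85, with all 11 genes at an unadjusted limma p below 0.05. Of 14 smooth muscle markers 0 passed the threshold, but their median was 1.02 and 12 had an unadjusted limma p below 0.05. The part of these markers in the fall of the 3 members was not tested. Replicate 1, which was highest for Mmp7, had a neutrophil sum of 89.9 FPKM where the other 4 had 2.14 to 4.07, and its smooth muscle sum of 2955 FPKM was the lowest of the group. Their part in the Mmp7 value was not tested.

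In Il23a-labelled colon 0 members passed the threshold against NEMOIEC-KO by limma, and 0 had an unadjusted p below 0.05. Of all genes 0.083% were called. The members' median log2 fold change was -0.02. Mmp10 measured 72.3, 2.17, 5.15, 15.5 and 1.73 FPKM in replicates 1 to 5, Mmp13 58.5, 1.71, 4.00, 12.7 and 1.02, Mmp7 35.6, 0.595, 10.0, 7.03 and 0.963, and Mmp3 55.5, 2.20, 4.10, 10.2 and 0.599. Replicate 1 was the highest of all 25 libraries for Mmp3, Mmp10 and Mmp13, and replicates 2 and 5 were low, so the range of this genotype enclosed or overlapped that of NEMOIEC-KO for each gene.

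The intervals of these differences were wide. The log2 fold change was -0.20 for Mmp10 (95% interval -1.76 to 1.35), 0.01 for Mmp13 (-1.56 to 1.58), -0.28 for Mmp7 (-1.96 to 1.39) and -0.05 for Mmp3 (-1.71 to 1.61). For the steadier members it was 0.11 for Mmp14 (-0.26 to 0.47), 0.10 for Timp1 (-0.75 to 0.95) and 0.08 for Timp3 (-0.48 to 0.64). Mmp8 (0.36, -0.61 to 1.34), Mmp9 (-0.38, -1.73 to 0.97) and Mmp12 (-0.40, -1.38 to 0.58) completed the set. None of the tested genes of the other protease, matrix and inducer groups was called in this comparison either.

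The secreted protease sum of the Il23a-labelled libraries was 242, 7.94, 26.6, 51.1 and 5.56 FPKM. Their neutrophil sums, 517, 4.40, 91.9, 173 and 5.16 FPKM, were high in the same replicates 1, 3 and 4. In the Il12b-labelled libraries the protease sum was 3.52, 21.6, 4.76, 5.40 and 4.54 FPKM, and in the Il12a-labelled ones 8.01, 4.13, 4.11, 7.77 and 6.86. All Il12a-labelled libraries were thus below all NEMOIEC-KO libraries in this sum, and Il12b-labelled replicate 2 was the only 1 of its group inside the NEMOIEC-KO range.

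Each double mutant was also set against Nemofl/fl, with which they share no library code, so no value within 1 code exists there, and in a fit with code as a term only the NEMOIEC-KO libraries link the codes. In Il12b-labelled libraries 0 members were called by limma (1 at an unadjusted p below 0.05) and 0.369% of all genes. In Il12a-labelled libraries 0 were called (1 at an unadjusted p below 0.05) and 1.34% of all genes. The largest differences of the first were Mmp9 (log2 fold change 1.20, 95% interval -0.15 to 2.55) and Mmp10 (0.85, -0.71 to 2.40), so rises of the size seen in NEMOIEC-KO were outside the interval for Mmp10 but inside it for Mmp9. In the Il12a-labelled libraries Mmp10 differed by 0.63 (-0.93 to 2.18), Mmp7 by 0.26 (-1.41 to 1.94) and Mmp13 by 0.12 (-1.46 to 1.69). Timp3 differed by -0.09 (-0.65 to 0.47) in the first and -0.37 (-0.92 to 0.19) in the second, and Timp1 by 0.66 (-0.19 to 1.51) and 0.57 (-0.28 to 1.42).

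Mmp14 was the member with an unadjusted p below 0.05 in both. It measured 38.0, 48.9, 39.2, 44.9 and 39.2 FPKM in Il12a-labelled replicates, all above the highest Nemofl/fl library at 35.7 (log2 fold change 0.41, limma adjusted p = 0.21), as were 5.19% of all genes. In the Il12b-labelled group it measured 37.3, 70.2, 37.1, 33.6 and 39.2 FPKM (0.41, 0.3). The means of Mmp14 in the 4 genotypes that lack epithelial NEMO lay between 42.0 and 46.3 FPKM.

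In Il23a-labelled libraries 5 members rose against Nemofl/fl and 0 fell, with 29.5% of all genes called and 12.6% higher. Mmp10 (log2 fold change 3.19, SE 0.75, limma adjusted p = 0.0049), Mmp7 (3.05, SE 0.81, 0.0096) and Mmp13 (2.67, SE 0.76, 0.014) were higher in every Il23a-labelled than in every Nemofl/fl library, as were 8.47% of all genes. The same held for Mmp14 at 60.5, 40.1, 51.0, 44.0 and 36.0 FPKM (0.53, SE 0.18, 0.03). The margin was narrow for Mmp13 (lowest 1.02 FPKM, highest Nemofl/fl library 1.00) and for Mmp14 (36.0 and 35.7). Timp1 measured 19.1, 6.59, 13.1, 12.3 and 4.12 FPKM, with replicate 5 inside the Nemofl/fl range (1.19, SE 0.41, 0.034). Mmp8 (1.24, 0.051), Mmp12 (1.24, 0.052), Mmp3 (1.83, 0.086), Mmp9 (1.35, 0.12) and Timp3 (-0.38, 0.29) did not pass. This comparison shares the Nemofl/fl libraries with that of NEMOIEC-KO.

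The calls of Mmp7, Mmp10 and Mmp13 were kept when each library was left out. Mmp14 lost its call without Nemofl/fl replicate 4 or Il23a-labelled replicate 1, 3 or 4 (limma adjusted p between 0.054 and 0.089), and Timp1 without Nemofl/fl replicate 2, 3 or 4 or Il23a-labelled replicate 1, 3 or 4 (0.053 to 0.099). With the smooth muscle score, the library code or sex-linked RNA as a term, 0 members passed, and the log2 fold change of Mmp10 was then 1.85 (limma adjusted p = 0.18), 4.11 (0.053) and 2.44 (0.087).

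Between double mutants, Mmp7 was higher in Il23a-labelled than in Il12b-labelled libraries (log2 fold change 2.79, SE 0.81, limma adjusted p = 0.046), the 1 member called there against 5.11% of all genes and 1.93% higher. The groups overlapped through Il12b-labelled replicate 2. The Mmp7 call was lost without Il12b-labelled replicate 1, 3, 4 or 5 or Il23a-labelled replicate 1, 3 or 4 (limma adjusted p between 0.09 and 0.13). Mmp10 (2.34, 0.068) and Mmp13 (2.27, 0.078) did not pass, and the other 7 members lay between -0.29 (Timp3) and 1.5 (Mmp3). Without Il12b-labelled replicate 2 the number called was 2, and without Il23a-labelled replicate 2 or 5 it was 3.

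Against the Il12a-labelled libraries 0 members of the Il23a-labelled group were called by limma, with 5 at an unadjusted p below 0.05 and 1.16% of all genes called. Mmp10 was higher in every Il23a-labelled library, as were 0.981% of all genes, but its log2 fold change of 2.56 (SE 0.75) had an adjusted p of 0.091. Mmp7 (2.79, 0.089) and Mmp13 (2.55, 0.095) were close to it, and the other 7 members lay between -0.01 (Timp3) and 1.17 (Mmp8). Without Il12a-labelled replicate 1 or Il23a-labelled replicate 2 or 5 the number called was 3 in each case. Between Il12a-labelled and Il12b-labelled libraries 0 members were called by limma, 0 had an unadjusted p below 0.05, and 0.41% of all genes were called. The 10 differences lay between -0.67 (Mmp9) and 0.55 (Mmp3). The intervals still allowed differences of up to 2.21 for Mmp3 and 1.68 for Mmp7 on the log2 scale.

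**Figure D4:**
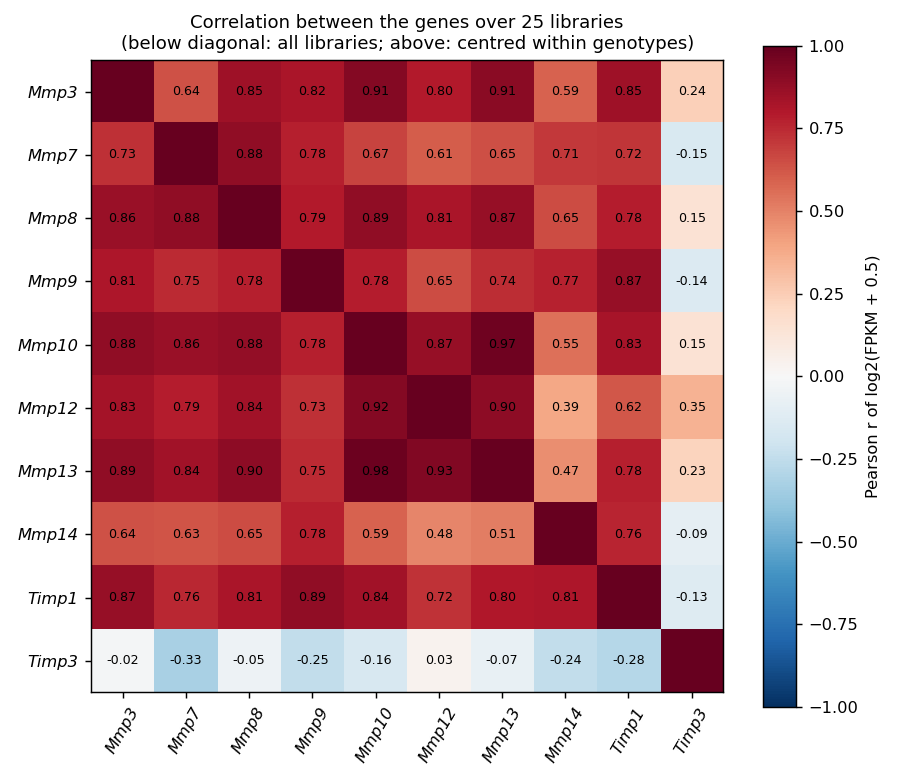
Pearson correlation of log2(FPKM + 0.5) between each pair of members over the 25 libraries, below the diagonal as measured and above it after subtracting genotype means. Mmp10 and Mmp13 had the highest correlation, 0.98 below the diagonal and 0.97 above it. Timp3 had correlations with the other members between -0.33 and 0.03 below the diagonal and between -0.15 and 0.35 above it.

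Across the 25 libraries the members varied together to different degrees. These correlations describe libraries that share genotype, library code and cell composition, and carry no test. Mmp10 and Mmp13 had r = 0.98 (0.97 after subtracting genotype means), Mmp12 and Mmp13 0.93, and Mmp10 and Mmp12 0.92. Timp1 was closest to Mmp9 (0.89) and Mmp3 (0.87). Mmp14 had its highest value with Timp1 (0.81) and its lowest among the proteases with Mmp12 (0.48). Members next to each other in the chromosome 9 cluster, genes that are not members left aside, had values from 0.83 (Mmp12 and Mmp3) to 0.93 (Mmp13 and Mmp12). The closest pair, Mmp10 and Mmp13, are not neighbours in it. Mmp3 and Mmp7, which have Mmp10 and Mmp8 between them, had 0.73.

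Outside the family, the most similar genes were sought among 12763 genes with a mean of at least 1 FPKM. For Mmp13 they were Il11 (r = 0.98), a cytokine of stromal cells, Il1a (0.96) and the protease inhibitor Serpina3f (0.95). Mmp10 was most like Il1rl1 (0.97), the receptor of IL-33, and Tnfaip2 (0.97), and Mmp12 like Csf2rb2 (0.93), a subunit of the IL-3 receptor. Mmp8 followed Chil3 (0.97), Fpr2 (0.96), a formyl peptide receptor, and Stfa2l1 (0.95). As Mmp8 reached 0.2 FPKM in only 6 libraries, these values rest largely on few libraries. Mmp7 followed S100a9 (0.94), Gzma (0.93) and Csf3r (0.93), of which S100a9 and Csf3r were on the neutrophil marker list. Mmp9 was most like Itgam (0.90), Mmp3 like Ifitm3 (0.89), Timp1 like Serpina3n (0.90), Mmp14 like Hnrnpab (0.90) and Timp3 like Axl (0.89), a receptor tyrosine kinase.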

How the data were processed

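RNA of distal colon was sequenced as poly(A)-selected, stranded, paired-end libraries, per the labels' protocols, from 25 mice in 5 genotypes. The deposited values are FPKM per gene and library, made by the authors. TopHat2 2.0.10, Cufflinks 2.1.1, DESeq2 1.10.1 and build GRCm38 are named, per the submitters' processing notes, without their roles. Absolute depth is unknown, so no counting interval is given and a 0 sets no upper limit.

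Symbols matched 49109 of 49452 identifiers, all 10 members and all 173 genes of the 12 other lists. Tests used log2(FPKM + 0.5) of genes that reached 0.2 FPKM in 5 or more libraries. The genotype means were fitted jointly over the 25 libraries with limma 3.58.1 (trend, empirical Bayes, 20 residual degrees of freedom, two-sided) under R 4.3.3, and the code was tested on simulated data. P-values were adjusted by Benjamini-Hochberg over all genes of a comparison. Replicates are separate mice. After subtracting the genotype mean of each gene, same-numbered libraries of different genotypes had a median correlation of 0.0071, against 0.0086 otherwise. Numbers were therefore not used as pairs.

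The rule for named genes covered all members in every comparison, and those without a call are in part given as a range. From each other list, only the 2 called genes that rose most and the 2 that fell most could be named, and for each member the 3 genes most like it. Members and lists were chosen with earlier results of these data known. Promoters came from RefSeq (GRCm38.p6). Scaling, filters, pseudocounts, added terms and left-out libraries were varied. Sex-linked RNA as a term was added after seeing the data.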

Additional observations from a re-analysis of the deposited data

Results flagged for a closer look

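In each genotype the highest or lowest of the 5 libraries was marked where its gap to the next, on the log2 scale, exceeded 0.71 of the range of the group. Of 50 sets (10 genes in 5 genotypes) 9 were marked. Chance marks about 1 in 20 where values are normally distributed, which need not hold for values near 0 such as those of Mmp8. Il12b-labelled replicate 2 stood apart for 5 genes: it had 5.68 FPKM of Mmp3 (next 1.42), 0.37 of Mmp8 (next 0.0489), 8.65 of Mmp9 (next 0.971), 70.2 of Mmp14 (next 39.2) and 17.3 of Timp1 (next 5.54). Il12a-labelled replicate 1 stood apart for 3 genes, with 1.73 FPKM of Mmp7 (next 0.197) and 0.157 of Mmp8 (next 0.0271) as the highest values and 15.0 of Timp3 as the lowest (next 30.9). Nemofl/fl replicate 2 had 0.101 FPKM of Mmp8, which was listed at 0 in the other 4 libraries, so that this mark was fixed by the zeros. Sets of 1 library share its composition, so these marks are not independent of each other.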

How the results depend on the processing

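Pseudocounts of 0.1 and 1, a filter of 1 FPKM, median-of-ratios and quantile scaling kept the number of members called within 1.5 times the reported one in every comparison, except that with a pseudocount of 1 the count for Il23a-labelled against Il12b-labelled libraries was 0 (reported 1). Median-of-ratios scaling moved the median of all genes in Il12b-labelled against NEMOIEC-KO libraries from 0.11 to 0.0037 on the log2 scale. With no filter on low values, which tests more genes, Il23a-labelled libraries had 3 members called against Nemofl/fl (reported 5) and 0 against Il12b-labelled ones. A replicate block gave 0 for Il23a-labelled against Il12b-labelled libraries and 5 for NEMOIEC-KO against Nemofl/fl (reported 6). After subtracting genotype means, 6 of 25 libraries correlated best with 1 of their own number. The replicate block also ended the Mmp13 calls of Il12b-labelled and Il12a-labelled against NEMOIEC-KO libraries (limma adjusted p of 0.061 and 0.059). These 2 Mmp13 calls were lost with no filter on low values too (0.068 and 0.066). Fits of only the 2 groups compared gave 0 for Il12a-labelled against NEMOIEC-KO (reported 3), 1 for Il12a-labelled against Nemofl/fl (reported 0) and 0 for Il23a-labelled against Il12b-labelled. With library code as a term the counts were 0 for Il12b-labelled and 0 for Il12a-labelled against NEMOIEC-KO, 0 for Il23a-labelled against Nemofl/fl, and 3 and 2 for Il23a-labelled against Il12b-labelled and Il12a-labelled libraries. Libraries of 1 code only gave 0 for Il12b-labelled and 0 for Il12a-labelled against NEMOIEC-KO, with fewer samples. The smooth muscle score (mean log2 level of its markers) as a term gave 0 for NEMOIEC-KO against Nemofl/fl, 1 for Il12b-labelled and 0 for Il12a-labelled against NEMOIEC-KO, 0 for Il23a-labelled against Nemofl/fl and 0 against Il12b-labelled. Sex-linked RNA as a term gave 0 for Il23a-labelled against Nemofl/fl and 0 against Il12b-labelled. The cause of these differences was not tested in any setting. In libraries of 1 code only, the code and the smaller number of samples cannot be told apart.

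Leaving out 1 library gave 1 to 4 calls for Il12b-labelled and 0 to 4 for Il12a-labelled against NEMOIEC-KO, 3 to 8 for Il23a-labelled against Nemofl/fl, and 0 to 3 for Il23a-labelled against Il12b-labelled and against Il12a-labelled. Directions turned only for differences that had not passed the threshold. Against NEMOIEC-KO, Mmp14 in Il12b-labelled libraries was 0.11 with library code as a term or libraries of 1 code only, 0.14 with the smooth muscle term and -0.20 to 0.09 with 1 library left out, and in Il12a-labelled libraries 0.11, 0.19 and -0.11 to 0.090. With the smooth muscle term Mmp9 (0.26) and Timp1 (0.017) turned in Il12b-labelled and Timp1 (0.089) and Timp3 (-0.31) in Il12a-labelled libraries. Timp3 there was -0.0037 after median-of-ratios scaling and -0.014 to 0.33 with 1 library left out. In Il23a-labelled against NEMOIEC-KO libraries, both settings on library code gave 0.31 for Mmp3, 0.46 for Mmp7, 0.54 for Mmp10 and 0.17 for Mmp12. Mmp13 was -0.019 after median-of-ratios and -0.0057 after quantile scaling, -0.14 with the smooth muscle term and -0.48 with the sex-linked term, which also gave -0.081 for Mmp8, -0.091 for Mmp14 and -0.31 for Timp1. With 1 library left out the ranges there were -0.85 to 0.57 for Mmp3, -0.97 to 0.39 for Mmp7, -0.15 to 0.75 for Mmp8, -0.88 to 0.091 for Mmp9, -0.99 to 0.27 for Mmp10, -0.78 to 0.54 for Mmp13, -0.14 to 0.39 for Timp1 and -0.12 to 0.25 for Timp3. FPKM without counts do not show how many reads lie behind low values such as those of Mmp8.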
